A study of Mus musculus with 11 samples.

Results

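Operated knee cartilage of mice labelled c-FosDCh was compared with unoperated cartilage of mice labelled c-FosWT, gene by gene, to find which genes differed and which matched. The comparison takes 8 of the 11 libraries of the series: 4 from c-FosDCh knees after destabilization of the medial meniscus (DMM) and 4 from contralateral c-FosWT knees. Libraries were chosen by their labelled genotype and knee alone. The other 3 libraries, from operated c-FosWT knees, entered the fit to estimate the spread and are given only beside it.

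All animals were C57BL/6 and 14 weeks old, and all knees were taken 4 weeks after surgery. DMM is an operation that frees the medial meniscus and is a standard mouse model of osteoarthritis. Contralateral knees are the unoperated knees of animals that had the operation on the other side, so they are not knees of unoperated animals. The label c-FosDCh is read here as loss of Fos in chondrocytes, while neither the Cre driver nor the deleted part of the gene is given in the sources used here. No animal gave a library to both groups of the comparison, and the 4 c-FosDCh libraries are named for 4 animals. Unoperated knees labelled c-FosDCh were not analysed here. Genotype and surgery therefore cannot be told apart, as both differ between the groups.

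Fos is a subunit of AP-1, a transcription factor made of a Fos-family and a Jun-family protein that binds short palindromic DNA sites and is induced within minutes of mechanical or inflammatory signals. Chondrocytes, the cells of cartilage, make a matrix of type II collagen and the proteoglycan aggrecan under the transcription factor Sox9, live with little oxygen, and draw their energy mainly from glycolysis. Matrix metalloproteinases and aggrecanases that break this matrix down in osteoarthritis include known AP-1 targets.

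Cartilage was cut from the joint with a scalpel, and the libraries held other tissue too. Gene counts per library ran from 13593454 to 17887411. Levels are in CPM, counts scaled to a common library total, and a score is the mean log2 CPM of a list of genes. Libraries labelled c-FosDCh 3 and 4 stood apart from the other 6. Their cartilage scores were 9.02 and 9.03, above the range of 7.95 to 8.60 in the other 6, and their marrow scores (erythroid and granulocyte genes) were 5.80 and 3.56, below the range of 6.23 to 7.85 in the other 6. Muscle genes were highest in contralateral replicate 2, with a score of 8.01 against 1.66 to 6.38 in the other 7. In bulk RNA, fewer cells of a type and less RNA per cell cannot be told apart.

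Few genes separated the groups, and most were shown to match. Of 18125 tested genes, 11701 (64.6%) matched, meaning that the fold change was shown to lie within 2-fold in either direction, by an equivalence test on edgeR's quasi-likelihood fit with Benjamini-Hochberg adjustment. The matching genes had a median absolute log2 fold change of 0.13. No gene (0%) differed at an adjusted p under 0.05 in edgeR's quasi-likelihood test, where the lowest adjusted p was 0.584. At an unadjusted p under 0.05, 842 genes (4.65%) were higher and 670 (3.7%) were lower in libraries labelled c-FosDCh. By CPM, all 4 c-FosDCh libraries lay above all 4 contralateral libraries for 413 genes (2.28%) and below them for 384 (2.12%). DESeq2, the other count test run, called 17 genes higher (0.0942%) and 24 lower (0.133%) among the 18039 genes it gave an adjusted p, and limma-voom called 0. The remaining 6424 genes were neither called different by edgeR nor shown to match. The median 95% confidence interval of a log2 fold change reached 0.51 to either side for a single gene, before any adjustment over genes. Differences well above that size were not called either, such as Chil1 at 1.87 and Cyp2e1 at -4.45 (edgeR adjusted p = 0.584 for both). With 4 libraries a group, the absence of calls therefore does not show an absence of differences.

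**Figure D1:**
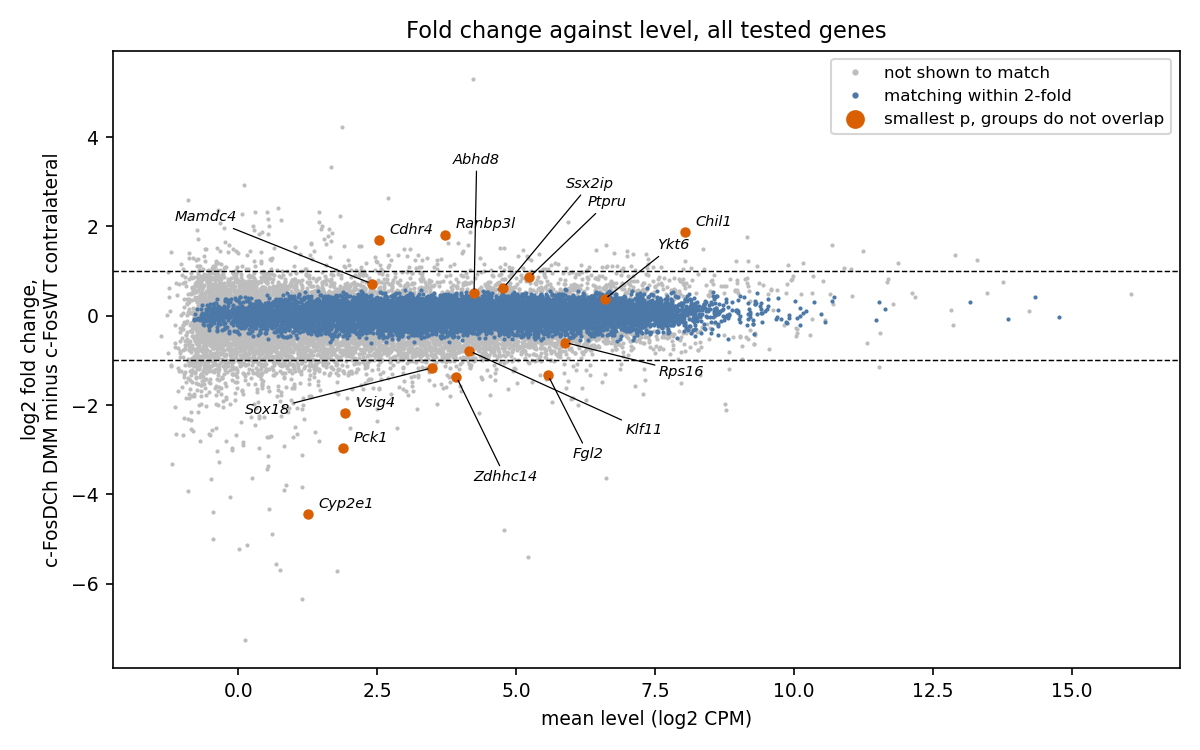
Log2 fold change of libraries labelled c-FosDCh DMM minus c-FosWT contralateral (vertical axis) against mean level in log2 CPM (horizontal axis) for the 18125 tested genes. Blue points are the 11701 genes that matched within 2-fold, grey points the rest, orange points the 16 named genes of smallest p whose groups did not overlap, and dashed lines mark a 2-fold difference.

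The 4 libraries labelled c-FosDCh did not lie equally near unoperated cartilage. In c-FosDCh 1 and 2, 95.8% and 96.3% of tested genes were within 2-fold of the contralateral mean, inside the range of 92.4 to 97.2% for each contralateral library against the mean of the other 3. In c-FosDCh 3 and 4 the share was 83.9% and 73.9%, below every contralateral library. Most of their genes outside 2-fold were lower: 12.4% of tested genes in c-FosDCh 3 and 20.1% in c-FosDCh 4. Over genes, the median SD of log2 CPM was 0.35 among libraries labelled c-FosDCh and 0.23 among contralateral libraries, and it was larger among the former for 13470 genes (74.3%). Without c-FosDCh 3 and 4 together, 13220 genes matched and edgeR called 0.

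**Figure D2:**
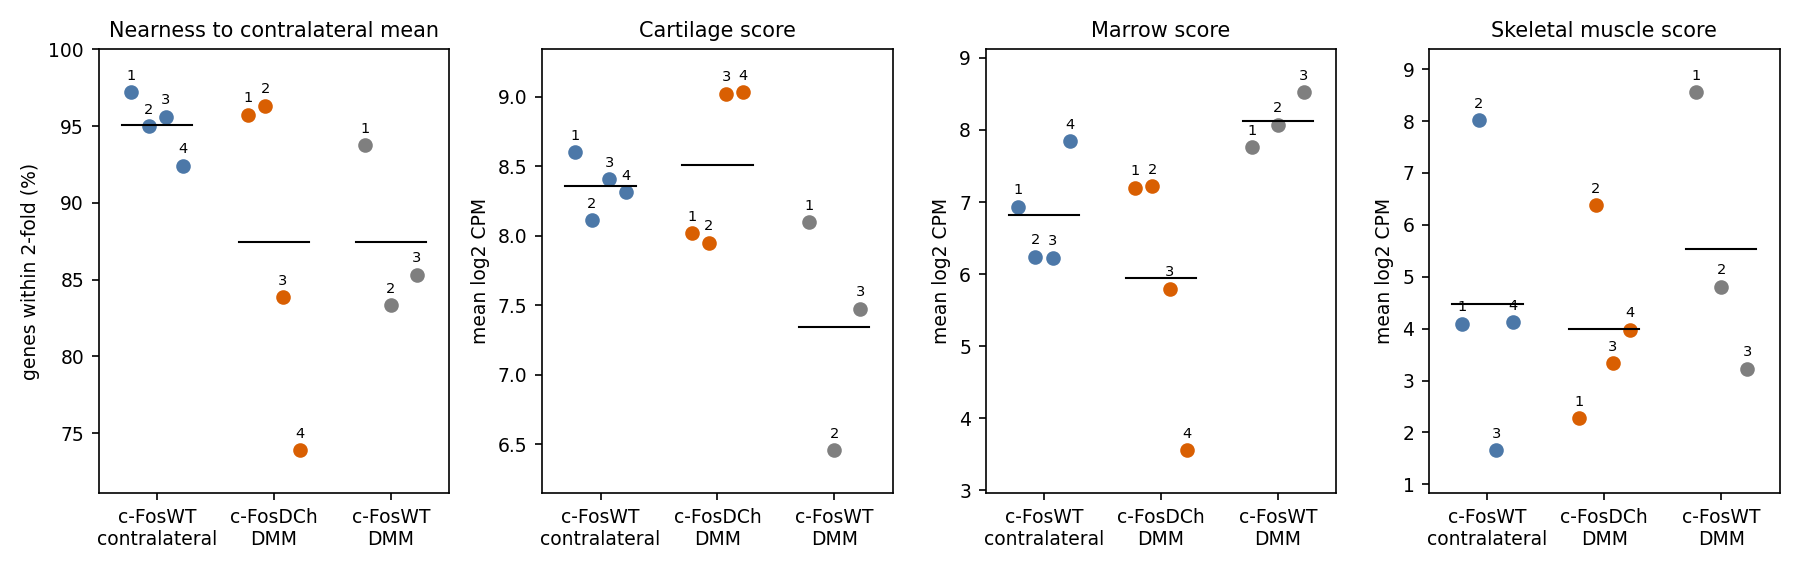
Each point is 1 library, numbered by replicate, and bars are group means. The first panel gives the percent of tested genes within 2-fold of the contralateral mean, and the others give the cartilage, marrow and skeletal muscle scores in mean log2 CPM. Among libraries labelled c-FosDCh, 3 and 4 had the highest cartilage scores, the lowest marrow scores and the fewest genes within 2-fold.

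Fos itself lay at a similar level in operated c-FosDCh and unoperated c-FosWT cartilage. Fos (ENSMUSG00000021250.13, chromosome 12, 85473890 to 85477273, GRCm38) had 17.1, 24.9, 22.01 and 15.7 CPM in contralateral replicates 1 to 4 and 19.4, 10.9, 29.5 and 33.0 CPM in c-FosDCh 1 to 4. The groups overlapped, with c-FosDCh 2 lowest and c-FosDCh 3 and 4 highest of the 8. The log2 fold change was 0.22 ± 0.31 (SE; 95% confidence interval -0.48 to 0.92), and Fos matched within 2-fold in edgeR's equivalence test (adjusted p = 0.0268). It no longer passed as matching without c-FosDCh 1 (0.29), contralateral 2 (0.34) or contralateral 3 (0.27), and was -0.37 without c-FosDCh 3 and 4. Counts over the whole gene do not show whether the transcripts held a deleted part, and the Fos level therefore does not check the genotype label. The libraries also hold RNA of cells other than chondrocytes, and the part of those cells in the Fos level was not tested. Fos was highest in c-FosDCh 3 and 4, which had the lowest marrow scores of the 8 libraries (5.80 and 3.56). With the marrow score as a term of the fit the value for Fos was -0.13.

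Of the 14 tested genes of the AP-1 family, 8 matched (57.1%), 0 were called by edgeR's quasi-likelihood test, 2 were higher at an unadjusted p under 0.05 and 0 lower. Beside this and the later list counts stand the shares of all tested genes at that threshold, 4.65% higher and 3.7% lower. The median log2 fold change of the family was 0.27, against 0.00 over all tested genes. Jun, the main Jun-family partner, had 27.6, 36.4, 27.5 and 24.4 CPM in contralateral and 33.4, 30.6, 30.03 and 57.8 CPM in libraries labelled c-FosDCh. It matched at 0.39 ± 0.23, as did Junb at 0.30 ± 0.21. The match of Jun was lost without c-FosDCh 2 or 3 or contralateral 2, at values of 0.48 to 0.52. Without c-FosDCh 4 both genes still matched, at 0.14 for Jun and 0.09 for Junb.

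The family members with the largest positive values were Maff and Fosb. Maff, a small Maf protein, had 9.84, 12.9, 13.8 and 7.87 CPM in contralateral and 16.0, 14.8, 28.7 and 58.1 CPM in libraries labelled c-FosDCh. Its groups did not overlap, and the log2 fold change was 1.402 ± 0.44, or 0.49 without c-FosDCh 3 and 4. Fosb, a close relative of Fos, had 5.83, 7.78, 6.14 and 3.94 CPM in contralateral and 12.6, 5.87, 10.6 and 16.8 CPM in libraries labelled c-FosDCh. It was higher in 3 of these 4 than in every contralateral library, with a log2 fold change of 0.95 ± 0.33 and 0.66 without c-FosDCh 3 and 4. The edgeR adjusted p was 0.584 for both. Fosl2, another Fos relative, matched at 0.29 ± 0.15 although all 4 c-FosDCh libraries lay above all 4 contralateral ones, at 197 to 303 against 176 to 190 CPM. Fosl1 had under 1.5 CPM in all 8 libraries and neither matched nor differed. The Batf genes, AP-1 proteins of immune cells, had negative values of -1.22 (Batf3), -0.86 (Batf2) and -0.53 (Batf).

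Of the 22 other immediate early and dissection stress genes, 12 matched, among them Egr1 (-0.32), Nr4a1 (0.13), Btg2 (0.02) and Klf6 (-0.14). At an unadjusted p under 0.05, 5 were higher and 0 lower: Ccn2 (1.59), connective tissue growth factor, the phosphatase gene Dusp1 (1.37 ± 0.46), the heat shock genes Hspa1b (1.15) and Hspa1a (0.95), and Klf4 (0.68). Dusp1, which switches off MAP kinases, had 97.0, 106, 107 and 68.6 CPM in contralateral and 154, 80.7, 249 and 498 CPM in libraries labelled c-FosDCh. The groups overlapped through c-FosDCh 2, and the value was 0.33 without c-FosDCh 3 and 4. The list's median of 0.08 was -0.09 when library totals alone set the scale, a scaling that shifted the median of all genes by -0.16.

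The proteases of cartilage breakdown are printed next with the promoters of Mmp13 and Mmp3, because these genes are known AP-1 targets and their promoters hold its site. The site was searched as TGANTCA, which is its own reverse complement, so a single search covers both strands. The window was the 250 bases before and 50 bases after the start of each RefSeq gene model (GRCm38.p6). Capitals mark the site, and only the 250 bases before the start are shown, on the + strand of the genome, for Mmp13 at chr9:7272264-7272513, Mmp3 at chr9:7445572-7445821 and Fgl2 at chr5:21372423-21372672. Fgl2 is shown because it is 1 of the 16 genes of smallest p named further on and holds the site.
Mmp13: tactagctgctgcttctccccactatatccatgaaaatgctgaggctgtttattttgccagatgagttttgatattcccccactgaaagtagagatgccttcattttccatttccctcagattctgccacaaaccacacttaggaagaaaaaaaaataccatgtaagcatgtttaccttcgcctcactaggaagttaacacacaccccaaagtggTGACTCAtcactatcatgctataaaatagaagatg
Mmp3: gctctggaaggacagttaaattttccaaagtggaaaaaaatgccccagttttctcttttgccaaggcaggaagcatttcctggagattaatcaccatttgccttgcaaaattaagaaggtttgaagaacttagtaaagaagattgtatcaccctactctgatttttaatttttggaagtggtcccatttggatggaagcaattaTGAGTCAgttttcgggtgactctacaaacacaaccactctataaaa
Fgl2: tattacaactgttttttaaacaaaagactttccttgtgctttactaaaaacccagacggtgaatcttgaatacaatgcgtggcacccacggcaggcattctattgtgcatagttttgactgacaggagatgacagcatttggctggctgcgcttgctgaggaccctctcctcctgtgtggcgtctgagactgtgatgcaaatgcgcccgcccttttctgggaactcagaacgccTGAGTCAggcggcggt
The site begins 35 bases before the start in Mmp13, 46 in Mmp3 and 16 in Fgl2. A promoter was found for 73 of the 90 named genes, and 5 of these held the site: the 3 shown, Ltbp3 and Gbp2. Shares were counted by gene, where any promoter of the gene held the site. It was present for 786 of 11923 tested genes with a promoter (6.59%) and for 454 of 8252 matching genes (5.5%). The counts were 42 of 568 genes higher at an unadjusted p under 0.05 (7.39%) and 42 of 405 genes lower at that threshold (10.4%). A match of these letters is a description of the window and not evidence that AP-1 binds there.

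Neither AP-1 target separated operated c-FosDCh from unoperated c-FosWT cartilage. Mmp13, the main collagenase of cartilage, had 281, 205, 380 and 461 CPM in contralateral and 207, 562, 239 and 164 CPM in libraries labelled c-FosDCh. Mmp3, stromelysin, had 35.8, 22.6, 8.65 and 73.7 CPM in contralateral and 22.3, 34.7, 27.8 and 48.1 CPM in libraries labelled c-FosDCh. The groups overlapped for both, with log2 fold changes of -0.18 ± 0.41 and -0.09 ± 0.53, and neither was shown to match (edgeR equivalence adjusted p = 0.0539 and 0.0838). The sign of Mmp13 turned to 0.04 without c-FosDCh 4 and 0.01 without contralateral 4, and that of Mmp3 to 0.06 without c-FosDCh 1 and 0.57 without contralateral 4.

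Of the 26 tested proteases and inhibitors, 10 matched (38.5%), and the median log2 fold change was -0.13. At an unadjusted p under 0.05, 2 were higher and 1 lower, against 4.65% and 3.7% of all tested genes. The aggrecanase gene Adamts5 matched at -0.31 ± 0.23, with 94.9, 149, 96.9 and 66.5 CPM in contralateral and 69.1, 72.6, 85.9 and 101 CPM in libraries labelled c-FosDCh, but not without c-FosDCh 3 and 4, where the value was -0.50. The metalloproteinase inhibitors Timp1 (0.10) and Timp2 (0.08 ± 0.15) matched, as did Mmp2 (0.15) and Mmp14 (-0.36). Htra1, a secreted serine protease found in cartilage, had 219, 228, 222 and 215 CPM in contralateral and 286, 299, 466 and 511 CPM in libraries labelled c-FosDCh. Its groups did not overlap, the contralateral libraries lay close together, and the log2 fold change was 0.82 ± 0.22, or 0.43 without c-FosDCh 3 and 4. Adamts9 lay lower without overlap, at 26.8 to 69.9 CPM against 77.9 to 113 CPM, with a log2 fold change of -0.80 ± 0.29 that was -0.35 without c-FosDCh 3 and 4. Mmp9 (-0.74) and Ctsk (-0.64), which are made by osteoclasts and, for Mmp9, granulocytes, were lowest in c-FosDCh 3 and 4.

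**Figure D3:**
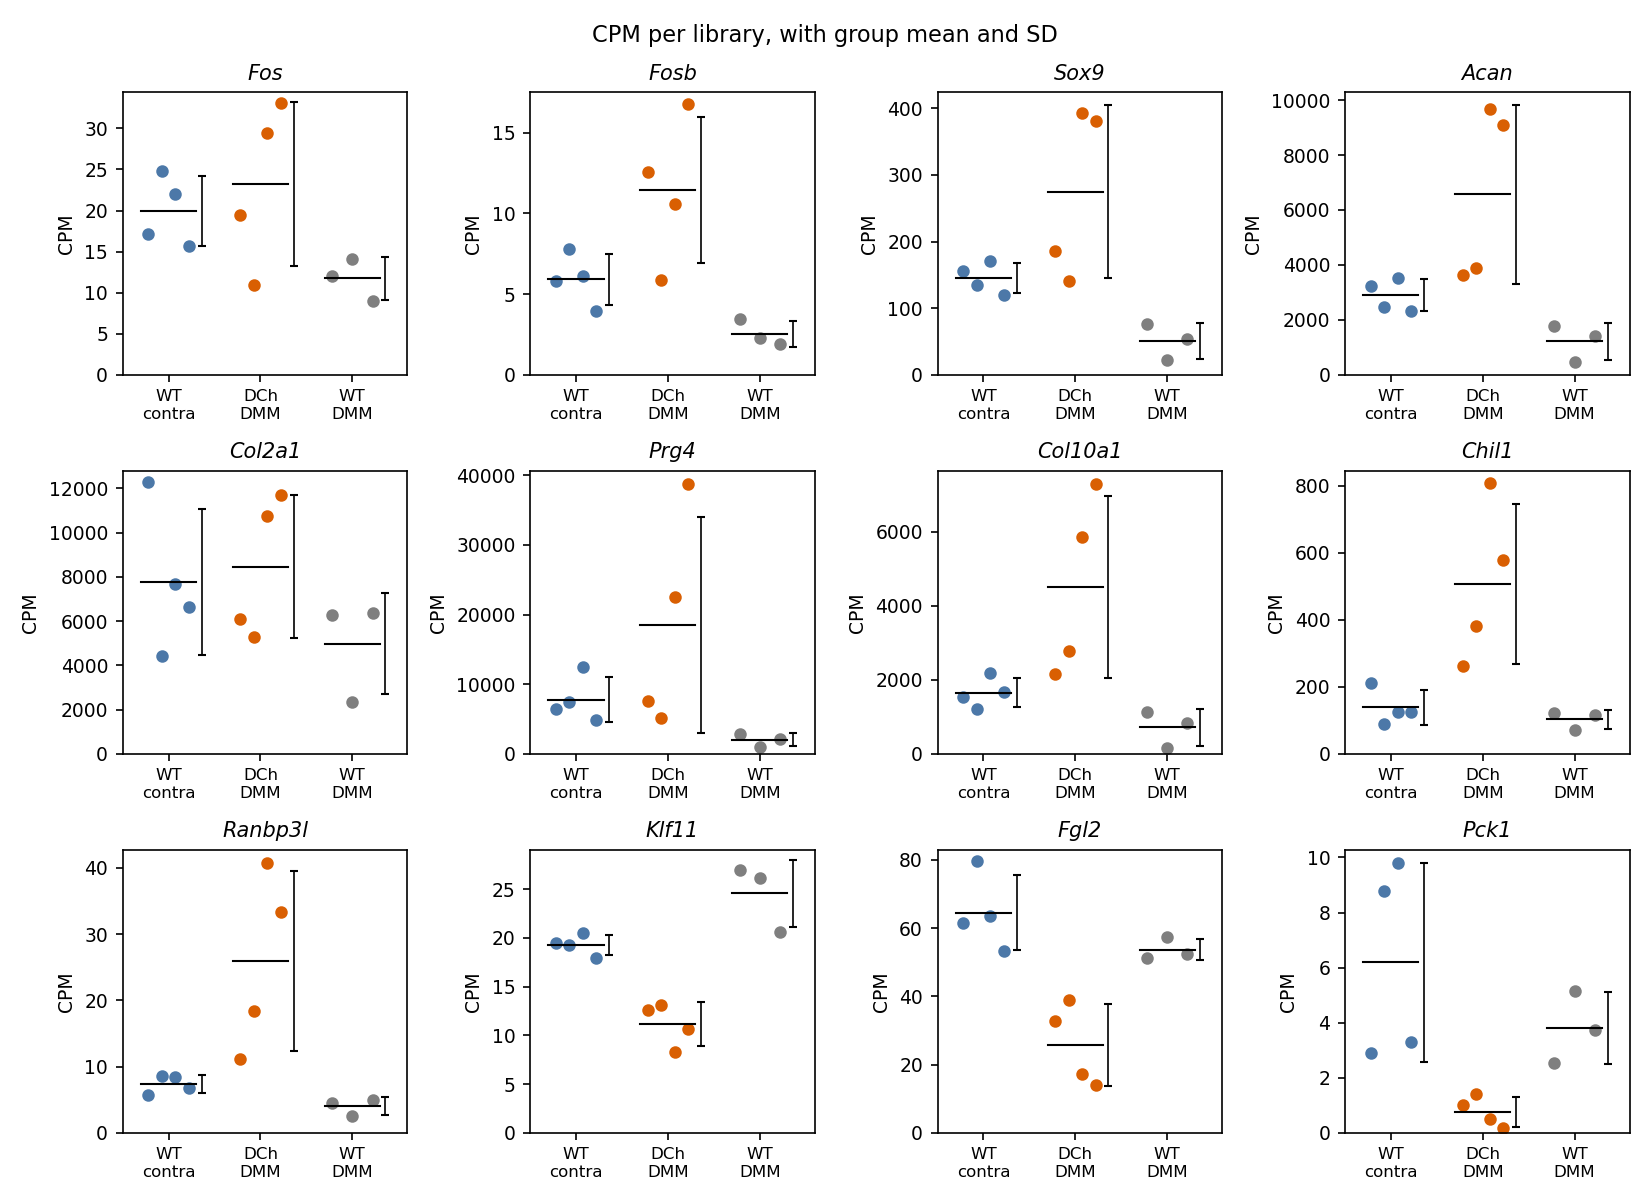
CPM (vertical axis, from 0) of 12 genes in each library of c-FosWT contralateral, c-FosDCh DMM and c-FosWT DMM knees, with lines for group means and bars for 1 SD. Acan, Chil1 and Ranbp3l of libraries labelled c-FosDCh lay above all contralateral libraries, Klf11, Fgl2 and Pck1 lay below them, and Fos, Fosb, Sox9, Col2a1, Prg4 and Col10a1 overlapped.

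Among cartilage genes, aggrecan stood higher in all 4 libraries labelled c-FosDCh and type II collagen did not. Acan, which codes for aggrecan (ENSMUSG00000030607.7, chromosome 7, 79053483 to 79115099), had 3230, 2460, 3531 and 2338 CPM in contralateral and 3630, 3876, 9678 and 9088 CPM in libraries labelled c-FosDCh. The groups did not overlap, but c-FosDCh 1 and 2 lay just above the highest contralateral library and c-FosDCh 3 and 4 far above it. The log2 fold change was 1.18 ± 0.45 (95% confidence interval 0.18 to 2.189, edgeR adjusted p = 0.584), and 0.40 without c-FosDCh 3 and 4. Col2a1, the type II collagen gene, had 12290, 4444, 7677 and 6617 CPM in contralateral and 6082, 5294, 10740 and 11710 CPM in libraries labelled c-FosDCh. The highest and the lowest of the 8 were both contralateral. Its log2 fold change of 0.12 ± 0.43 was not shown to match (edgeR equivalence adjusted p = 0.0528), and its sign turned in several alternatives, to -0.43 without c-FosDCh 3 and 4 and to -0.07 when library totals alone set the scale.

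Sox9, the regulator of both genes, had 157, 135, 171 and 120 CPM in contralateral and 186, 141, 393 and 381 CPM in libraries labelled c-FosDCh. It overlapped through c-FosDCh 2, with a log2 fold change of 0.92 ± 0.41 that was 0.18 without c-FosDCh 3 and 4. Prg4, which codes for the surface lubricant lubricin, had 6386, 7443, 12420 and 4894 CPM in contralateral and 7600, 5198, 22550 and 38730 CPM in libraries labelled c-FosDCh. Only c-FosDCh 3 and 4 exceeded the contralateral range, and the log2 fold change of 1.25 ± 0.63 became -0.26 without them.

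Of the 30 cartilage matrix and chondrocyte identity genes, all tested, 6 matched, a smaller share than the 64.6% of all tested genes. The matching genes were the fibril collagens Col11a1 (-0.06) and Col11a2 (-0.01), the type IX collagen genes Col9a2 (0.14) and Col9a3 (0.01), Sox6 (0.27) and Fgfr3 (0.22). At an unadjusted p under 0.05, 4 were higher (Chil1, Acan, Sox9 and Fmod) and 2 lower (Matn3 and Epyc), while edgeR's quasi-likelihood test called 0. Fmod, fibromodulin, which binds collagen fibrils, was higher without overlap at 1059 to 1844 against 573 to 993 CPM. Matn3, a matrilin of growth cartilage, ranged from 0.71 to 138 CPM in contralateral and from 0.07 to 4.07 CPM in libraries labelled c-FosDCh. Matn3 (-4.81) and Epyc (-2.69), a small proteoglycan of growth cartilage, were both highest in contralateral replicate 4, at 138 and 6.28 CPM, and Epyc was at -1.515 without that library. The list's median log2 fold change was 0.46, and it was -0.24 without c-FosDCh 3 and 4. The 2 libraries with the highest cartilage scores were also those with the lowest marrow, endothelial and adipocyte scores. With the marrow score as a term of the fit the list's median was 0.03.

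Enzymes that modify collagen and build glycosaminoglycan chains matched about as often as all tested genes (64.6%). Of 19 collagen folding and secretion genes 13 matched (68.4%), and of 23 glycosaminoglycan synthesis genes 14 matched (60.9%), with 4 higher and 0 lower at an unadjusted p under 0.05 in each list. Examples were the collagen galactosyltransferase Colgalt1 at -0.07 ± 0.11 and the chain-starting xylosyltransferase Xylt2 at -0.04 ± 0.11, which had 20.3 to 25.1 CPM in contralateral and 20.97 to 23.5 CPM in libraries labelled c-FosDCh. Plod1, a lysyl hydroxylase, and Chpf2, a chondroitin polymerising factor, were higher in all 4 c-FosDCh libraries than in all contralateral ones and still matched, at 0.40 ± 0.14 and 0.46 ± 0.16. The members furthest from 0 were the prolyl hydroxylases P3h2 (1.16) and P4ha2 (1.10) and the chondroitin sulfotransferase Chst3 (1.07), the last without overlap. The list medians of 0.36 and 0.37 were 0.01 and -0.04 without c-FosDCh 3 and 4.

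Genes of hypertrophy, the last stage of chondrocyte life before mineralisation, had no common direction. Of 20 genes 8 matched (40.0%), and 2 were higher and 0 lower at an unadjusted p under 0.05 (4.65% and 3.7% of all tested genes). The median log2 fold change was -0.05, with a sign that turned when single libraries such as c-FosDCh 4 were left out (0.07). Col10a1, the collagen of hypertrophic chondrocytes, had 1548, 1205, 2171 and 1681 CPM in contralateral and 2147, 2769, 5853 and 7288 CPM in libraries labelled c-FosDCh. Its lowest c-FosDCh value lay just under the highest contralateral one, and the log2 fold change was 1.45 ± 0.56, or 0.59 without c-FosDCh 3 and 4. Runx2, a driver of hypertrophy and bone formation, lay lower without overlap at 89.9 to 174 against 175 to 237 CPM, yet matched at -0.41 ± 0.19, though not when library totals alone set the scale (-0.55). The parathyroid hormone receptor gene Pth1r matched at -0.07 ± 0.17, as did the hedgehog target genes Ptch1 (-0.14) and Gli1 (-0.02).

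Fibrous matrix genes, which mark repair tissue and bone as well as cartilage, matched for 12 of 22 (54.5%). At an unadjusted p under 0.05, 2 were higher and 0 lower (4.65% and 3.7% of all tested genes). Biglycan (Bgn) matched at 0.03 ± 0.18, with 1655, 1436, 1635 and 1634 CPM in contralateral and 1474, 1758, 1698 and 1572 CPM in libraries labelled c-FosDCh. Those values interleaved. Col1a1, the type I collagen gene, matched at -0.03 ± 0.44 in edgeR's equivalence test (adjusted p = 0.0409), but it ranged from 12260 to 53380 CPM in libraries labelled c-FosDCh, and the match was lost when any one of the 8 libraries of the comparison was left out, at values of -0.66 (without c-FosDCh 2) to 0.21 (without c-FosDCh 3). Dcn, decorin, was higher in c-FosDCh 3 and 4 at 4293 and 5617 CPM, against 1302 to 2397 CPM in the other 6, with a log2 fold change of 1.06 ± 0.42 that was 0.28 without them.

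**Figure D4:**
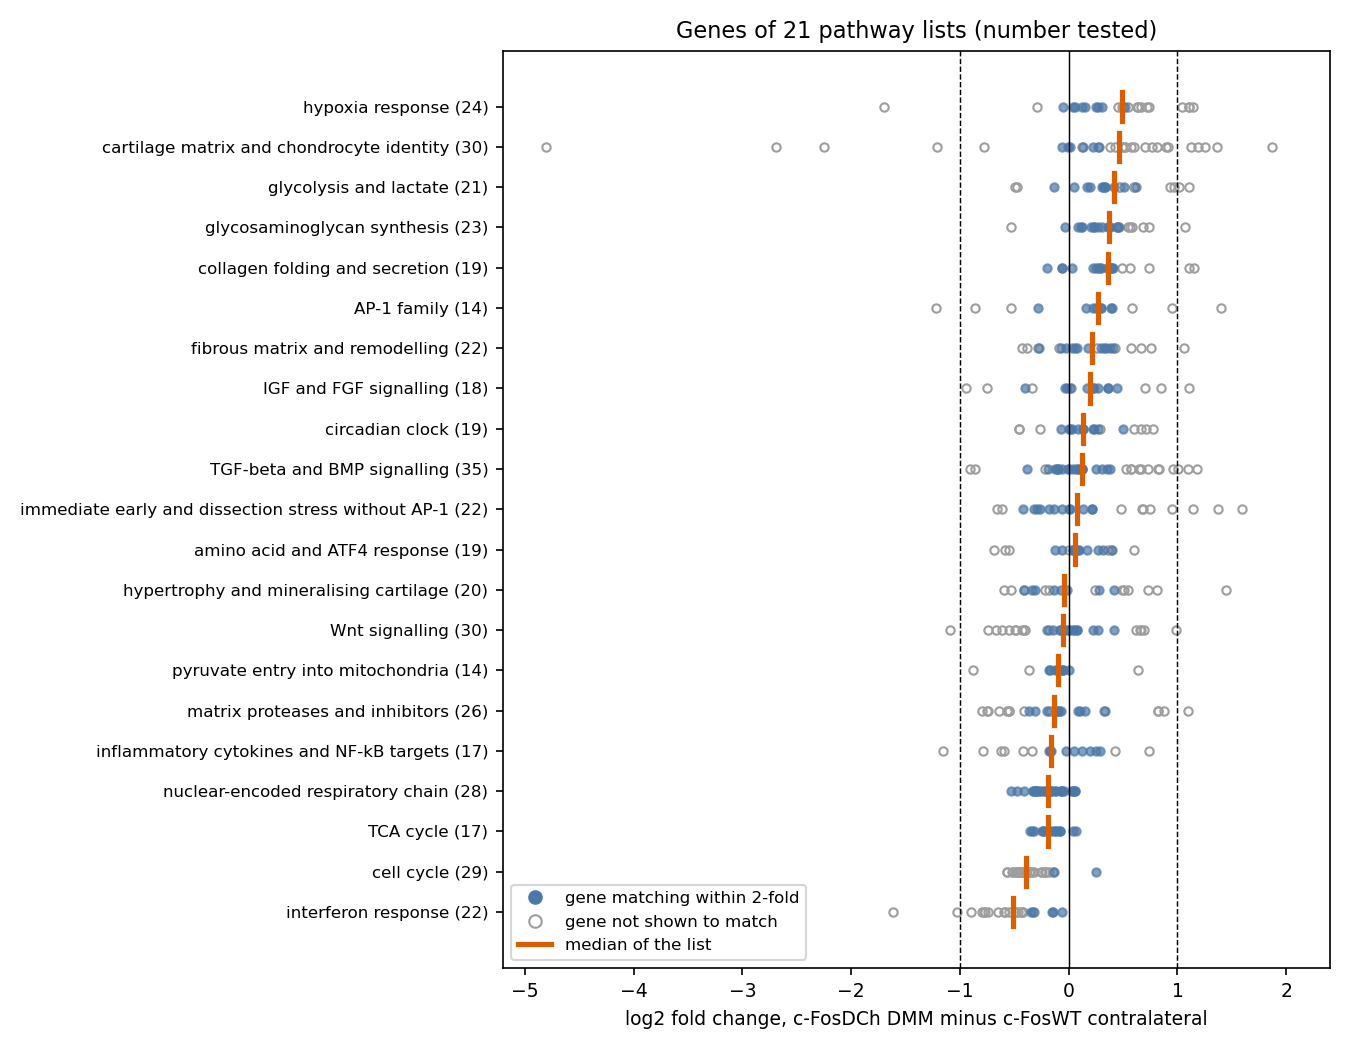
Log2 fold change of libraries labelled c-FosDCh DMM minus c-FosWT contralateral (horizontal axis) for each tested gene of 21 pathway lists, ordered by median. Filled points matched within 2-fold, open points were not shown to match, and orange ticks are list medians, which ran from -0.52 for interferon response to 0.49 for hypoxia response with all libraries, and from -0.24 for cartilage genes to 0.28 for fibrous matrix without c-FosDCh 3 and 4.

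The genes of mitochondrial respiration were the lists most completely shown to match. All 17 tested TCA cycle genes and all 28 nuclear-encoded respiratory chain genes matched (100% each, against 64.6% of all tested genes). With a stricter low-count filter 75.3% of tested genes matched. The complete match was not particular to libraries labelled c-FosDCh. All 17 and all 28 genes also matched in c-FosWT DMM against the same contralateral libraries, where 54.9% of all tested genes matched. Examples were Ndufa8 (0.06 ± 0.10), a subunit of complex I, and the oxoglutarate dehydrogenase gene Ogdh (0.07 ± 0.11). Within that band the values leaned to one side: 23 of 28 respiratory chain genes were negative, with a median of -0.19, and 6 were lower and 0 higher at an unadjusted p under 0.05. Cox7b, a subunit of cytochrome oxidase, had 37.2, 35.1, 38.7 and 40.7 CPM in contralateral and 30.2, 28.5, 26.1 and 24.3 CPM in libraries labelled c-FosDCh. The groups did not overlap, and it matched at -0.48 ± 0.14. Both medians were near 0 without c-FosDCh 3 and 4, at -0.01 for the TCA cycle and -0.02 for the respiratory chain. Of 14 genes of pyruvate entry into mitochondria 11 matched, including both pyruvate carrier genes Mpc1 (-0.05) and Mpc2 (-0.09). Pdk1, a kinase that inhibits pyruvate dehydrogenase, was not shown to match. It had 83.7, 79.5, 96.8 and 63.6 CPM in contralateral and 70.9, 84.0, 156 and 193 CPM in libraries labelled c-FosDCh. Its log2 fold change of 0.64 ± 0.30 was -0.04 without c-FosDCh 3 and 4.

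Glycolysis genes leaned the other way. Of 21 tested genes 11 matched (52.4%), 8 were higher and 0 lower at an unadjusted p under 0.05, and the median log2 fold change was 0.42. Slc2a1, the glucose transporter GLUT1, had 97.6, 91.1, 111 and 60.9 CPM in contralateral and 102, 78.8, 216 and 379 CPM in libraries labelled c-FosDCh, with a log2 fold change of 1.10. Only c-FosDCh 3 and 4 lay above the contralateral range. Ldha, lactate dehydrogenase, matched at 0.42 ± 0.26 in edgeR's equivalence test (adjusted p = 0.0378), and not without contralateral 1, 2 or 3 or c-FosDCh 1 or 2 (0.43 to 0.58). Hk1, the first enzyme of the path, lay higher without overlap, at 150 to 240 against 115 to 138 CPM, and matched at 0.62 ± 0.17, a call lost without contralateral 1, 2 or 4, c-FosDCh 1 or 2 or c-FosWT DMM 2 (0.61 to 0.72) and with upper quartile scaling (0.63). The list's median was 0.03 without c-FosDCh 3 and 4.

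Hypoxia response genes gave the highest median of the pathway lists with all libraries, 0.49, and -0.04 without c-FosDCh 3 and 4. Of 24 genes 9 matched (37.5%), 5 were higher and 0 lower at an unadjusted p under 0.05. Ddit4, a stress-induced inhibitor of mTOR signalling, had 36.6, 32.3, 39.0 and 36.3 CPM in contralateral and 55.9, 54.8, 131 and 76.8 CPM in libraries labelled c-FosDCh. All 4 lay above the contralateral range, with a log2 fold change of 1.14 ± 0.28 and 0.64 without c-FosDCh 3 and 4 (edgeR adjusted p = 0.584 with all libraries). The oxygen sensor gene Egln3 (1.04) lay above the contralateral range in c-FosDCh 3 and 4 alone, at 89.5 and 143 CPM. Of 19 amino acid and ATF4 response genes 12 matched, among them Asns (0.06), Psph (0.04 ± 0.13) and Atf4 (0.27), and none was at an unadjusted p under 0.05.

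Of 35 tested TGF-beta and BMP signalling genes 19 matched (54.3%), including the signal carriers Smad1, Smad2, Smad3, Smad4 and Smad5 at -0.06 to 0.35. At an unadjusted p under 0.05, 8 were higher and 2 lower, beside 4.65% and 3.7% of all tested genes. The higher ones included the ligands Bmp2 (0.96) and Inhba (1.00), the receptors Bmpr1b (1.09), Tgfbr1 (0.57) and Acvr1 (0.57), and Ltbp3 (0.67 ± 0.25), which holds latent TGF-beta in the matrix and was at 0.20 without c-FosDCh 3 and 4. The lower ones were the extracellular inhibitors Fst (-0.91) and Chrdl1 (-0.86 ± 0.27). Chrdl1 had 28.9, 20.1, 26.8 and 31.4 CPM in contralateral and 14.5, 14.5, 21.96 and 8.18 CPM in libraries labelled c-FosDCh, overlapping through c-FosDCh 3, and its value was -0.87 without c-FosDCh 3 and 4. The list's median of 0.12 was 0.01 without c-FosDCh 3 and 4 and -0.05 when library totals alone set the scale.

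Of 30 tested Wnt signalling genes 13 matched (43.3%), with 1 higher and 1 lower at an unadjusted p under 0.05. These counts are near the shares of all tested genes, 4.65% higher and 3.7% lower. The mediators Ctnnb1 (-0.08) and Lrp6 (0.27) and the target gene Axin2 (0.04) matched. Tcf7, a transcription factor of the pathway that lymphocytes also express, lay lower without overlap, at 6.94 to 12.3 against 13.2 to 14.8 CPM. Of 18 IGF and FGF signalling genes 11 matched, and Fgf2 (1.11) and Fgf1 (0.85 ± 0.28), growth factors stored in cartilage matrix, were higher at an unadjusted p under 0.05. Of 19 circadian clock genes 11 matched, including Clock (0.01), Arntl (-0.07) and Per3 (0.00). At an unadjusted p under 0.05, 3 of the 19 were higher and 0 lower. Per1, among the higher ones, was at 0.67 ± 0.26, with 127 to 218 CPM against 80.5 to 154 CPM.

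No gene of the inflammatory list (17 tested) or the interferon list (22 tested) was higher at an unadjusted p under 0.05 in the operated cartilage labelled c-FosDCh. Over all tested genes 4.65% were higher at that threshold, and in lists of this size a count of 0 is near that share. Of 17 inflammatory and NF-kB genes 8 matched, including Nfkb1 (0.12 ± 0.09), Rela (0.05), Nfkbia (0.19 ± 0.10) and Icam1 (0.25), and 0 were higher and 1 lower at an unadjusted p under 0.05. That gene, the macrophage growth factor Csf1, had 78.6, 93.1, 96.7 and 79.6 CPM in contralateral and 73.5, 70.3, 51.9 and 30.1 CPM in libraries labelled c-FosDCh, a log2 fold change of -0.62 ± 0.23 without overlap and -0.26 without c-FosDCh 3 and 4. All 22 tested interferon response genes had negative values, with a median of -0.52. This median was 0.03 without c-FosDCh 3 and 4, whose interferon scores of 2.61 and 1.79 lay below the range of 3.31 to 3.83 in the other 6 libraries. Only 5 of the 22 matched, 2 were lower at an unadjusted p under 0.05 (Xaf1 at -0.90 and Gbp2 at -0.65 ± 0.22), and edgeR's quasi-likelihood test called 0. Of 29 cell cycle genes 28 were negative, with a median of -0.40, which was 0.25 without c-FosDCh 3 and 4, and 0 were at an unadjusted p under 0.05. Mki67, a marker of dividing cells, had 373, 233, 228 and 713 CPM in contralateral and 371, 533, 161 and 56.6 CPM in libraries labelled c-FosDCh, in which replicates 3 and 4 were again lowest.

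Genes with the smallest p-values among those whose groups did not overlap were named next, 8 in each direction. DESeq2 called all 16 at an adjusted p under 0.05, and edgeR's quasi-likelihood test gave each an adjusted p of 0.584. Chil1, a chitinase-like glycoprotein secreted by chondrocytes and macrophages (ENSMUSG00000064246.10, chromosome 1, 134182176 to 134190181), had 212, 89.1, 126 and 126 CPM in contralateral and 260, 380, 807 and 577 CPM in libraries labelled c-FosDCh. All 4 lay above the contralateral range, the log2 fold change was 1.87 ± 0.38 (95% confidence interval 1.03 to 2.72, DESeq2 adjusted p = 0.00462), and it was 1.23 without c-FosDCh 3 and 4. Ranbp3l, which exports BMP-activated Smad proteins from the nucleus, had 5.64, 8.57, 8.41 and 6.76 CPM in contralateral and 11.1, 18.4, 40.8 and 33.4 CPM in libraries labelled c-FosDCh. Its log2 fold change was 1.82 ± 0.39 (DESeq2 adjusted p = 0.00849), or 1.03 without c-FosDCh 3 and 4. The others were Cdhr4 (1.70, or 0.89 without c-FosDCh 3 and 4), a cadherin-related gene, the receptor phosphatase Ptpru (0.86), Mamdc4 (0.71), Ssx2ip (0.62), Abhd8 (0.51) and the vesicle fusion gene Ykt6 (0.37). Abhd8, Ssx2ip and Ykt6 also matched within 2-fold, so their differences were below 2-fold.

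In the other direction, Klf11, a transcription factor gene induced by TGF-beta (ENSMUSG00000020653.12, chromosome 12, 24651274 to 24662789), had 19.4, 19.3, 20.5 and 18.0 CPM in contralateral and 12.6, 13.1, 8.26 and 10.6 CPM in libraries labelled c-FosDCh. Its contralateral values lay close together, and all 4 c-FosDCh values lay below them. The log2 fold change was -0.79 ± 0.15 (DESeq2 adjusted p = 0.00481), and -0.56 without c-FosDCh 3 and 4. Fgl2, a fibrinogen-like protein of immune cells, had 61.4, 79.6, 63.5 and 53.4 CPM in contralateral and 32.7, 39.0, 17.3 and 13.9 CPM in libraries labelled c-FosDCh. Its log2 fold change was -1.32 ± 0.29 (DESeq2 adjusted p = 0.0172), or -0.83 without c-FosDCh 3 and 4. Rps16, a ribosomal protein gene, was at -0.60 ± 0.12 and matched within 2-fold, though not with library totals alone (-0.76), and it has near-identical pseudogene copies that make its counts uncertain.

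The remaining 5 genes of lower value were Pck1, Cyp2e1, Vsig4, Zdhhc14 and Sox18. Pck1, an enzyme of glucose and glycerol synthesis expressed in fat, had 2.88, 8.78, 9.78 and 3.30 CPM in contralateral and 1.02, 1.395, 0.50 and 0.16 CPM in libraries labelled c-FosDCh (log2 fold change -2.97 ± 0.60). Cyp2e1, a cytochrome P450 gene, had 2.32 to 8.11 CPM in contralateral and 0.07 to 0.44 CPM in libraries labelled c-FosDCh (-4.45 ± 0.97). Both rest on few counts in the latter. Vsig4, a complement receptor of resident macrophages, was at -2.18 ± 0.47, Zdhhc14, a palmitoyltransferase gene, at -1.36 ± 0.28, and Sox18, an endothelial transcription factor gene, at -1.17 ± 0.27. Without c-FosDCh 3 and 4 these 5 were at -2.31, -5.15, -2.17, -0.96 and -0.75. Beside them, 11 of 11 tested adipocyte markers, 13 of 13 endothelial markers and 10 of 12 macrophage markers had negative values, with medians of -1.29, -0.87 and -0.79. Pck1 is itself 1 of the 11 adipocyte markers, so that count and median include it. The adipocyte score was 3.31 to 4.11 in contralateral libraries and 3.23, 3.30, 0.66 and -0.71 in libraries labelled c-FosDCh 1 to 4. The endothelial score was 4.99 to 5.47 and 4.80, 4.97, 3.70 and 3.17, and the macrophage score 5.66 to 6.04 and 5.92, 5.62, 4.78 and 3.97, in the same order. The part of other cell types in these genes was not tested.

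The erythroid, granulocyte and osteoclast scores were lowest in c-FosDCh 3 and 4, while the muscle and tendon scores were not. Of the 15 erythroid genes 0 matched and all were negative, with a median of -0.52, and of the 17 granulocyte genes 0 matched, with a median of -0.38. The neutrophil gene S100a8 had 489 to 1912 CPM in contralateral and 1539, 1025, 372 and 39.7 CPM in libraries labelled c-FosDCh. Osteoclast markers had 5 of 11 genes lower and 0 higher at an unadjusted p under 0.05 (3.7% and 4.65% of all tested genes). Of these, Acp5 (-0.96) had the smallest p. This gene, which codes for tartrate-resistant acid phosphatase, lay lower at 170 to 463 against 473 to 822 CPM without overlap. Of 18 skeletal muscle markers 16 were negative and 2 positive, with values from -3.645 to 5.31 and a median of -1.69. At an unadjusted p under 0.05, 1 of them was higher and 0 lower, beside 4.65% and 3.7% of all tested genes. Myh4 was at 1531 CPM in contralateral 2 and at 8.53 to 211 CPM in the other 7 libraries. Tendon and ligament markers matched for 5 of 9 genes, with a median of 0.06.

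The operated c-FosWT knees give a view of the same genes beside this comparison. They share the 4 contralateral libraries with it, so the 2 sets of values are not independent, and 3 of those contralateral libraries come from the same animals. Against contralateral cartilage 9953 genes (54.9%) matched in operated c-FosWT knees, from 3 libraries, and 11701 in operated knees labelled c-FosDCh, from 4. Log2 fold changes against contralateral were -1.25 ± 0.50 for Acan in c-FosWT DMM and 1.18 ± 0.45 in libraries labelled c-FosDCh. They were -1.53 ± 0.46 and 0.92 ± 0.41 for Sox9, and -1.21 ± 0.37 and 0.95 ± 0.33 for Fosb. The contralateral mean thus lay between the means of the operated groups for these 3 genes, while single contralateral libraries overlapped c-FosDCh 2 for Sox9 and Fosb. None of the 3 was called in c-FosWT DMM by edgeR's quasi-likelihood test (adjusted p = 0.217 for Acan, 0.182 for Sox9 and 0.182 for Fosb). None was called in libraries labelled c-FosDCh (0.584 for each). The fit did not use the shared animals. Without c-FosDCh 3 and 4 the values of Acan, Sox9 and Fosb in libraries labelled c-FosDCh were 0.40, 0.18 and 0.66. Fos was at -0.76 ± 0.35 in c-FosWT DMM (mean 11.7 CPM) and at 0.22 ± 0.31 in libraries labelled c-FosDCh (mean 23.2 CPM). The latter value was -0.37 without c-FosDCh 3 and 4, and Fos was not called in either group. Mmp13 was at 0.40 ± 0.44 and -0.18 ± 0.41, and Chil1 at -0.43 ± 0.40 and 1.87 ± 0.38. Adamts5, by contrast, was at -0.34 ± 0.25 and -0.31 ± 0.23. Ssx2ip, at 0.72 ± 0.15 and 0.62 ± 0.14, and Hk1, at 0.44 ± 0.18 and 0.62 ± 0.17, were on the same side in both. The marrow score was 7.76 to 8.52 in operated c-FosWT knees, above 3.56 to 7.22 in libraries labelled c-FosDCh.

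**Figure D5:**
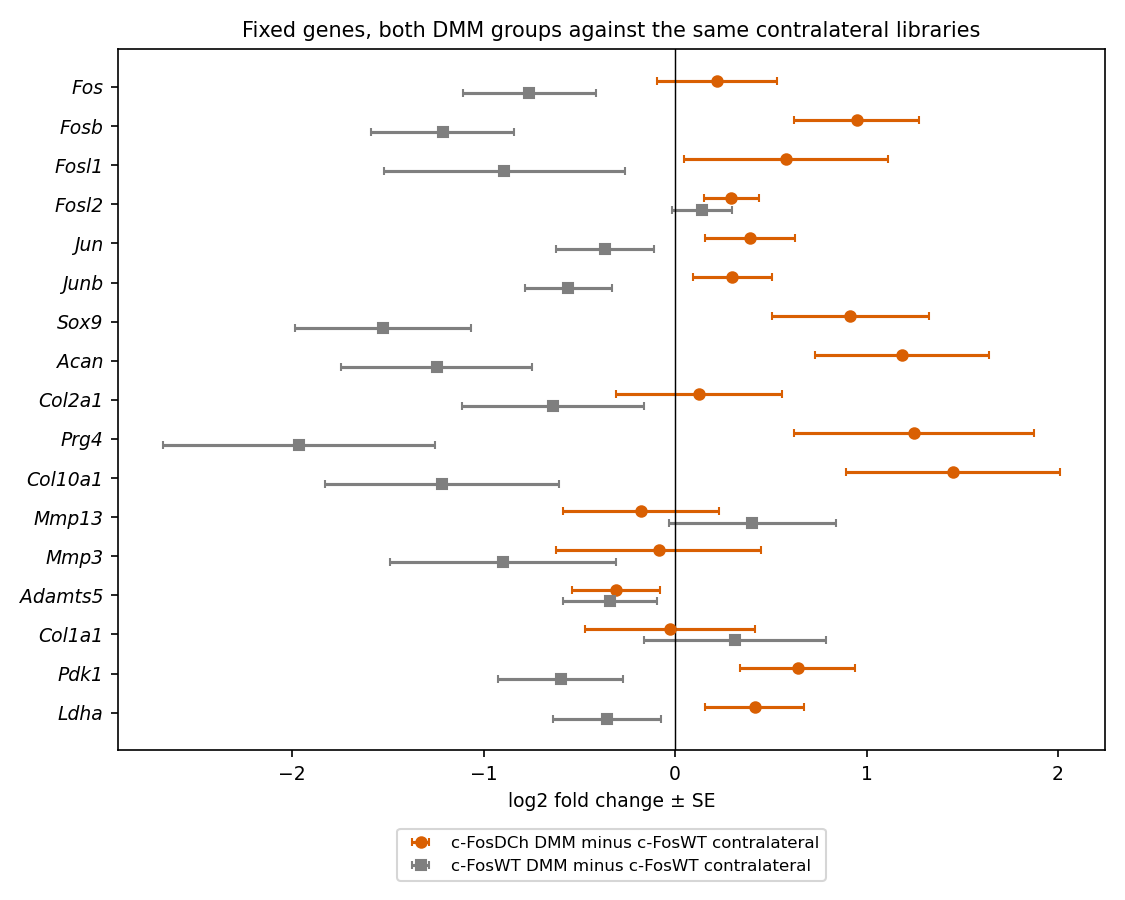
Log2 fold change against the same 4 c-FosWT contralateral libraries (horizontal axis, bars are 1 SE) for 17 fixed genes in libraries labelled c-FosDCh DMM (circles) and in c-FosWT DMM (squares). Fosl2, Mmp3 and Adamts5 lie on the same side of 0 in both, and all the other genes shown, Acan, Sox9 and Fosb among them, lie on opposite sides.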

How the data were processed

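Poly(A) RNA of scalpel-dissected mouse knee cartilage was sequenced as single reads from NEBNext Ultra II Directional libraries, per the labels' protocols. The authors deposited 1 table of raw counts per gene for each of the 11 libraries, in STAR's layout. The submitters' processing notes name STAR 2.6.1a, RSEM, DESeq2 1.22.2, bcl2fastq 2.19.1.403 and build GRCm38. Which strand was counted, the annotation release and the role of RSEM are not stated there, so values of genes with an antisense neighbour are uncertain. The read classes that are not genes (unmapped, multimapping, no feature and ambiguous reads, which left 33.1 to 43.2% of reads as gene counts) stayed out of library sizes and tests.

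Counts were fitted in edgeR 4.0.16 (R 4.3.3): filterByExpr, TMM scaling and a robust quasi-likelihood fit of all 11 libraries with group as the only term, so that c-FosWT DMM added to the estimate of the spread. Tests were two-sided at a Benjamini-Hochberg adjusted p under 0.05 over 18125 genes. A gene matched when both one-sided tests of the same fit placed its log2 fold change inside ±1 at an adjusted p under 0.05. CPM used TMM-scaled totals, ± is the SE of a log2 fold change, which was its size divided by the square root of F, and the log2 scale of scores had a prior count of 2. Alternatives used DESeq2 1.42.0 and limma 3.58.1, and the edgeR difference and equivalence tests were tested on simulated data. Tables and figures were made with Python 3.11.15, pandas 2.3.3 and matplotlib 3.10.9.

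Members, lists and alternatives were chosen with earlier results of these data known. There were 35 lists (21 pathway, 14 marker; 632 distinct genes, 1 of them not found). Named genes were 17 fixed genes, the 8 genes each way of smallest p without overlap, averaging 1 log2 CPM or more and with an established symbol, and in each pathway list the gene of smallest p each way and the gene of smallest equivalence p where it matched, 90 in all. Further list members are given as examples, and were chosen after their values were seen. Replicates of libraries labelled c-FosDCh were numbered in accession order, because their labels repeat a number while naming different animals. The labels do not say that replicates were prepared apart, and no pair within a group agreed within sampling noise (lowest chi-square per degree of freedom 31.0).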

Additional observations from a re-analysis of the deposited data

Results flagged for a closer look

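In 6 of 186 groups of 4 libraries tested, over the named genes and the cartilage, marrow and muscle scores, 1 library lay far from the other 3 by Dixon's criterion, which chance meets in about 1 of 20 groups. Among libraries labelled c-FosDCh, replicate 4 was highest for Fosl2 (303.3 CPM) and Jun (57.82 CPM) and lowest for Runx2 (89.91 CPM). Among contralateral libraries, replicate 1 was lowest for Col1a1 (19430 CPM), replicate 2 for Bgn (1436 CPM) and replicate 4 for Chpf2 (112.6 CPM).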

How the results depend on the processing

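The count of genes called different was 0 in edgeR's quasi-likelihood fit and in every alternative run except DESeq2, which called 41 (17 higher, 24 lower), and the fit without contralateral replicate 2, which called 1 lower (Gm22615, adjusted p = 0.0322). Over the fits that left out 1 library the count of calls was 0 to 1 (higher 0, lower 0 to 1), and 10602 to 13113 genes matched. A margin of 1.5-fold left 6411 matching genes. A paired analysis had no pairs within the comparison, since no animal gave both groups; with the animal as a replicate block in limma-voom 11732 genes matched, against 11733 without the block, and 0 were called. Other scalings, filters and covariates gave 11028 to 14066 matching genes, the highest with a marrow covariate. Over the alternatives of the named matching genes, 1070 values kept the match, 51 lost it, and 4 (Abhd8, Rps16, Ssx2ip and Ykt6 in DESeq2) were called different.

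Signs turned for 9 named genes that were neither called nor matching. Without c-FosDCh 3 and 4 together these were Ccnb2 (0.071), Col2a1 (-0.43), Fosl1 (-0.06), Mmp13 (0.23), Pdk1 (-0.043), Prg4 (-0.26), Slc16a1 (0.01) and Tnc (0.007). Col2a1 was also -0.058 with a cartilage and -0.13 with a marrow covariate, -0.071 with library totals alone, -0.07 without contralateral 2 or without the muscle-rich libraries, -0.01 without c-FosDCh 3 and -0.05 without c-FosDCh 4. Mmp13 was 0.029 with a marrow covariate, 0.039 without c-FosDCh 4 and 0.01 without contralateral 4. Mmp3 was 0.225 in limma-voom with or without the block, 0.06 without c-FosDCh 1 and 0.57 without contralateral 4. With 1 library left out at a time, Col2a1 ran from -0.07 to 0.429, Mmp13 from -0.707 to 0.039 and Mmp3 from -0.41 to 0.57. The cause was not tested.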
